A study of Mus musculus with 2 samples.

Results

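The Hox genes of the embryonic mouse lung are described here by cluster and by paralog group. They were taken as every protein-coding gene, among the 43346 mouse genes of the deposited tables, whose symbol is Hox followed by a cluster letter (a to d) and a number. The rule uses no measured value, and it gave 39 genes, with 11 in the a cluster, 10 in the b cluster, 9 in the c cluster and 9 in the d cluster. The data are 2 RNA-seq libraries of 1 group, named biological replicates 1 and 2 in the labels. Both come from whole lung of B6NCrl mouse embryos at embryonic day 14.5, with no mutation and no treatment given in the labels. Total RNA of over 200 nt was used, 10.0 ng for each library, spike-in RNA was added, and the lungs were collected on day 15 (replicate 1) and day 17 (replicate 2) of July. There is no second condition, so the comparisons are between genes, between clusters and between the libraries.

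Hox genes encode transcription factors that bind DNA through a homeodomain and give cells along the body axis their regional identity. Within a cluster all Hox genes are read in one direction, and genes at the 3′ end (paralog group 1) are switched on earlier and farther forward in the embryo than genes at the 5′ end (group 13), which is called collinearity. Genes of the same paralog group lie in different clusters, descend from one ancestral gene and often stand in for each other. In the mouse lung, Hox genes of group 5 are known for their part in branching of the airways and in patterning of the mesenchyme, and loss of Hoxa5 alone disturbs the formation of the trachea and lung.

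The libraries hold 33601136 (replicate 1) and 34535168 (replicate 2) estimated read counts, of which 31940637 and 33167255 are on mouse genes and 4.942% and 3.961% on spike-ins. Hox genes took 0.02394% of the mouse counts in replicate 1 and 0.02577% in replicate 2. Markers of lung epithelium and of lung mesenchyme were detected in both libraries (5 of 5 in each list), with sums of 2561 and 2617 TPM (a level corrected for transcript length and depth) for the epithelium and 422.1 and 439.9 TPM for the mesenchyme, so the tissue matches its label. The libraries stood apart in other ways. A list of 9 heart muscle markers summed to 618.4 TPM (replicate 1) and 120.5 TPM (replicate 2), and 7 of the 8 tested were called higher in replicate 1 (Myl7, Actc1, Tnni1, Tnnt2, Myh6, Nppa and Mybpc3). Of the skeletal muscle markers, 3 of 4 tested (Myl1, Ckm and Acta1) were called higher in replicate 1 (list sums of 25.22 and 12.29 TPM). The other members were not higher there: Mylpf had 6.26 and 8.72 TPM in replicates 1 and 2, Myod1 0 and 3 counts, and Myog 0 and 1. Of the liver markers 2 of 3 tested (Afp and Apoa1) were called lower in replicate 1 (3.1 and 7.12 TPM). Over all tested genes 1.14% were called in either direction. Lists for blood progenitors (102.1 and 110.0 TPM) and for neurons and neural crest (8.67 and 7.21 TPM) held no gene called between the libraries. The motor neuron list, with Mnx1 and Chat at 0, summed to 0.66 and 0.08 TPM. All of it came from Slc18a3, with 34 and 4 counts in replicates 1 and 2, which was too low to be tested. The labels call each sample both pooled male and female and pup 1. Y-linked genes summed to 113.0 TPM (replicate 1) and 0.05 TPM (replicate 2), while Xist stood at 0.07 and 70.11 TPM, a split between the libraries that a label of pooled sexes does not describe.

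Per the annotation on mm10, the a cluster spans 105.3 kb of chromosome 6 (chr6:52155590-52260880) and is read on the minus strand. The b cluster spans 173.9 kb of chromosome 11 (chr11:96194316-96368256), the c cluster 115.8 kb of chromosome 15 (chr15:102921103-103036852) and the d cluster 96.8 kb of chromosome 2 (chr2:74668310-74765142), all read on the plus strand. RefSeq promoter windows on GRCm38.p6, each holding 250 bases before and 50 after a gene's start, were matched for 22 Hox genes (24 windows). Windows are printed for 4 genes of the a cluster because they cover the range of levels there: Hoxa5 was its most abundant member, Hoxa7 and Hoxa9 are the last detected gene and the next one along the cluster, and Hoxa13 had an expected count of 0. Capitals mark each CG pair, the site of DNA methylation in mammals and a mark of CpG island promoters.
Hoxa5 (chr6:52204538-52204837, minus strand): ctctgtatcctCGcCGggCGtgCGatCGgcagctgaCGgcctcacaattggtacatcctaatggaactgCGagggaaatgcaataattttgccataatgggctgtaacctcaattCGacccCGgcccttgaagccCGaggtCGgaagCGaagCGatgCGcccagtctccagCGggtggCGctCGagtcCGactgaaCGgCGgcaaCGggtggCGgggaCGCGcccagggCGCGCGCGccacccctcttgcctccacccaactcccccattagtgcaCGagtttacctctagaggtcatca
Hoxa7 (chr6:52218524-52218823, minus strand): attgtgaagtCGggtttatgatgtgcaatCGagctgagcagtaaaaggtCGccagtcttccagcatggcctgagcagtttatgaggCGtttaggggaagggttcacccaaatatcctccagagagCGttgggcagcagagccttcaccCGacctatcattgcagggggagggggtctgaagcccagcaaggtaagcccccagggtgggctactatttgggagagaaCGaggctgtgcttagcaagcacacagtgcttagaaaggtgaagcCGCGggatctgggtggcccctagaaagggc
Hoxa9 (chr6:52227321-52227620, minus strand): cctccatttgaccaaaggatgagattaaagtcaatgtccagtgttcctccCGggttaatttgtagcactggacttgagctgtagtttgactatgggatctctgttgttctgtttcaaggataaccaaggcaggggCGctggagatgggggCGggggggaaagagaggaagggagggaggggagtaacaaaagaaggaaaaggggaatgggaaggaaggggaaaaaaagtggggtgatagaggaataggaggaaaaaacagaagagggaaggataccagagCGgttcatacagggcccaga
Hoxa13 (chr6:52260831-52261130, minus strand): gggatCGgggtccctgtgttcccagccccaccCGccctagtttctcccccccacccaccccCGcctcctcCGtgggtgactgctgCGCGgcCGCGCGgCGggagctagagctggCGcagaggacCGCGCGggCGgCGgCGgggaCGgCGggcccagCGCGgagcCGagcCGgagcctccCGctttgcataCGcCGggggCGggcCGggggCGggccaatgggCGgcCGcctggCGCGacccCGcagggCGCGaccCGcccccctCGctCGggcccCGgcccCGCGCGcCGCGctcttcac
The number of CG pairs relative to that given by the window's base composition was 1.02 for Hoxa5, 0.41 for Hoxa7, 0.28 for Hoxa9 and 0.92 for Hoxa13, so the most abundant gene and the gene with no counts both had CG-rich windows. The Hoxa7 window holds the start of Hoxa7-202 but of neither of the leading Hoxa7 transcripts, and the windows name a RefSeq start, not a start measured in lung. Over all Hox windows the median of this ratio was 0.63, beside 0.38 over 32851 promoters of the same length. It was 0.59 over the 7 windows of detected genes and 0.75 over the 17 windows of the other genes. Windows with at least 55% G and C and a ratio of at least 0.65 made up 9 of 24 Hox windows (37.5%), against 28.06% of all promoters, with 3 of 7 among detected genes and 6 of 17 among the rest. The TATA string TATAAA, searched on both strands, was in 4 of 24 Hox windows (16.67%), all of genes that were not detected, and in 13.62% of all promoters.

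Of the 39 Hox genes, 14 (35.9%) were detected, meaning at least 1 TPM in both libraries. Because TPM is corrected for length, levels of different genes can be set side by side. Detected genes numbered 7 of 11 in the a cluster, 6 of 10 in the b cluster, 1 of 9 in the c cluster and 0 of 9 in the d cluster. By position they were 10 of the 15 genes of groups 1 to 5, 4 of the 8 genes of groups 6 to 8 and 0 of the 16 genes of groups 9 to 13. Over all 21474 protein-coding genes 58.8% were detected, and over the 115 other genes whose translated transcripts hold the homeodomain pattern 13.9% (16 genes). The pattern is 1 short string of residues, and homeodomain genes with other residues there are left out. The 13.9% is therefore not a share of all homeodomain genes. In whole tissue, few cells with much of a Hox RNA and many cells with little cannot be told apart.

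**Figure D1:**
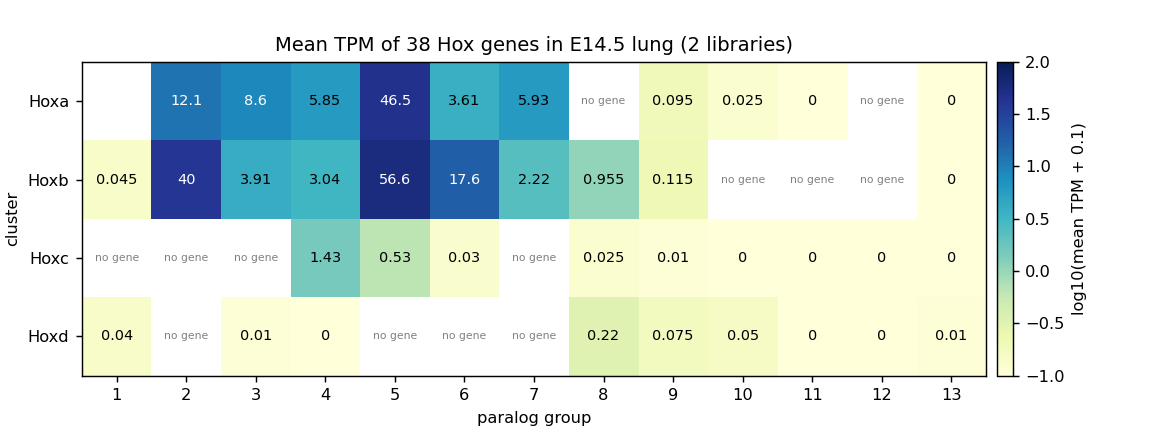
Mean TPM over the 2 libraries for 38 Hox genes, with clusters down the page, paralog groups 1 to 13 across it, and colour on a log10 scale after adding 0.1. Groups 2 to 7 of the a and b clusters hold the values above 2 TPM, the highest being Hoxb5 at 56.6 and Hoxa5 at 46.5, and groups 9 to 13 stay at or below 0.115.

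Summed Hox TPM was 200.0 in replicate 1 and 222.2 in replicate 2. The b cluster held 58.87% ± 2.545 of it and the a cluster 39.99% ± 2.644 (SD, n = 2 libraries). The c cluster held 0.953% and the d cluster 0.192%. Group 5 alone held 49.07% in replicate 1 and 49.08% in replicate 2, group 2 24.72% ± 0.844, group 6 10.03% ± 1.003, group 3 5.909% ± 0.580, group 4 4.896% ± 0.323 and group 7 3.87% ± 0.374 (SD, n = 2). Hoxb5, Hoxa5 and Hoxb2 together made up 67.95% (replicate 1) and 67.6% (replicate 2). Hox RNA was thus not spread evenly along the clusters: groups 5 and 2 held most of it, and the groups between them little.

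Group 5 was led by Hoxb5, with 51.77 TPM (replicate 1) and 61.40 TPM (replicate 2), from 2130 and 2525 counts. Hoxa5 followed with 45.80 and 47.16 TPM, from 1816 and 1877 counts. Both rank high among all protein-coding genes: 87.1% of them had a lower mean level than Hoxb5 and 84.5% a lower one than Hoxa5. The libraries' ranges of the pair did not overlap, Hoxb5 being higher in each library. The third member, Hoxc5, lay just below the detection threshold, with 0.57 and 0.49 TPM from 18 and 19 counts, so the members of the group spanned means of 0.53 to 56.59 TPM.

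Group 2 genes pattern the hindbrain and the arches that form the face, and both members were well detected in lung. Hoxb2 had 38.34 TPM (replicate 1) and 41.63 TPM (replicate 2), the third highest level of the family. Hoxa2 had 12.30 and 11.97 TPM, next below Hoxb6 in the order. In groups 2, 5 and 6 the b gene was above the a gene in both libraries, and in groups 3, 4 and 7 the a gene was above the b gene, with 6.02 and 3.04 TPM in replicate 1 for Hoxa4 and Hoxb4.

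Group 1 genes act earliest in the hindbrain, and its b and d members were nearly silent. Hoxb1 had 1 and 3 counts (0.02 and 0.07 TPM), and Hoxd1 0 and 3 counts (0 and 0.08 TPM). Hoxb1 is the Hox gene next to Hoxb2 on the chromosome, so a gene at the limit of detection stood next to one near 40 TPM.

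In groups 3 and 4, which act in the neck and upper trunk, levels were moderate. Hoxa3 had 8.10 and 9.10 TPM in replicates 1 and 2, and Hoxb3 2.88 and 4.94 TPM. Hoxa4 had 6.02 and 5.67 TPM, Hoxb4, also known for its part in blood stem cells, 3.04 TPM in both libraries, and Hoxc4 1.19 and 1.66 TPM, the one detected gene of the c cluster. The d members were at the bottom: Hoxd3 had 1 and 0 counts and Hoxd4 0 in both. Of their transcript sequence, 57.87% (Hoxd3) and 41.07% (Hoxd4) is shared in runs of 100 bases with each other or with overlapping genes, so reads from that sequence could have been divided among them. The overlapping genes had few counts to divide: Gm28230 had 0 in both libraries and Hoxd3os1 had 3 and 6 in replicates 1 and 2.

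Groups 6 and 7, known for patterning the thorax, were led by Hoxb6 with 15.53 TPM (replicate 1) and 19.72 TPM (replicate 2), the fourth highest level. Hoxa6 had 3.12 and 4.09 TPM, Hoxa7 6.65 and 5.20 TPM, and Hoxb7 1.62 and 2.81 TPM. Hoxc6 was at the limit, with 0 and 2 counts. In group 8, Hoxb8 lay just outside the threshold, at 0.78 TPM (replicate 1) and 1.13 TPM (replicate 2) (35 and 46 counts), so it passed 1 TPM in replicate 2 alone. Hoxd8 had 12 and 13 counts (0.21 and 0.23 TPM), the highest of the d cluster, and Hoxc8 0 and 2 counts.

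**Figure D2:**
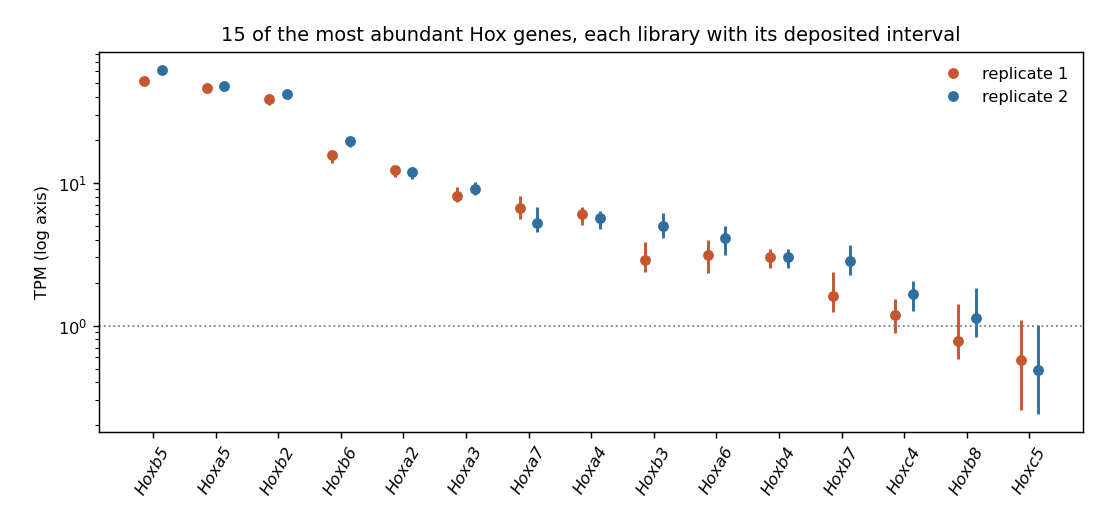
TPM of 15 of the most abundant Hox genes on a log axis, replicate 1 to the left of replicate 2, with vertical lines for the interval deposited with each value (its level is not given in the files) and a dotted line at 1 TPM. Levels fall from above 50 TPM at Hoxb5 to below 1 TPM at Hoxc5, and Hoxb3 and Hoxb7 show the widest distance between the libraries.

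In the order of mean level, neighbours were Hoxb5, Hoxa5, Hoxb2, Hoxb6, Hoxa2, Hoxa3, Hoxa7, Hoxa4, Hoxb3, Hoxa6, Hoxb4, Hoxb7 and Hoxc4. The ranges of the libraries overlapped for Hoxa7 and Hoxa4, for Hoxb3 and Hoxa6, and for Hoxb7 and Hoxc4, so these pairs have no order beyond their spread. The other neighbours were apart, some narrowly: Hoxa6 had at least 3.12 TPM and Hoxb4 3.04 TPM. Genes that are not neighbours could also overlap: Hoxb3 ran from 2.88 to 4.94 TPM, a range that holds the value of Hoxb4. With 2 libraries such a range is a narrow measure of spread.

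Groups 9 to 13 pattern the lumbar, sacral and tail regions, the limbs and the urogenital tract. Their 16 genes summed to 24 counts in replicate 1 and 11 in replicate 2, no value passed 0.17 TPM in a library, and 9 of them had 0 counts in both. Hoxa9 had 7 and 2 counts, Hoxb9 9 and 3, Hoxd9 2 and 5, and Hoxd10 4 and 0. Hoxa10 and Hoxd13 had 1 count each, in replicate 1, and Hoxc9 1 count, in replicate 2. Across all 25 genes below the threshold, 10 had 0 counts in both libraries: Hoxa11, Hoxa13, Hoxb13, Hoxc10, Hoxc11, Hoxc12, Hoxc13, Hoxd4, Hoxd11 and Hoxd12. A count of 0 allows up to 3 counts, which for the genes below the threshold comes to between 0.0529 and 0.149 TPM. This limit covers counting error only. The interval deposited for Hoxa13 was wider, reaching 0.590 and 0.578 TPM in replicates 1 and 2. The whole d cluster summed to 20 and 21 counts, of which Hoxd8 gave 12 and 13.

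Along the a cluster, counted from the 3′ end of the cluster to the 3′ end of each gene, the level was 12.1 TPM at Hoxa2 (6.8 kb), 8.6 at Hoxa3 (13.5 kb), 5.85 at Hoxa4 (34.1 kb), 46.5 at Hoxa5 (46.2 kb), 3.61 at Hoxa6 (50.7 kb) and 5.93 at Hoxa7 (58.9 kb), as means of the libraries. At Hoxa9 (67.5 kb) it was 0.095 TPM, and beyond it no a gene had more than 1 count. Along the b cluster the level was 0.045 TPM at Hoxb1, 40.0 at Hoxb2 (14.2 kb), 3.91 at Hoxb3 (20.3 kb), 3.04 at Hoxb4 (46.6 kb), 56.6 at Hoxb5 (62.1 kb), 17.6 at Hoxb6 (66.7 kb), 2.22 at Hoxb7 (78.1 kb) and 0.955 at Hoxb8 (82.9 kb). Hoxb9 (91.7 kb) had 0.115 TPM. Both clusters thus had high points at groups 2 and 5 with lower values between them, and both ended between groups 7 and 9. The c cluster held Hoxc4 and Hoxc5 at its 3′ end and almost nothing beyond. These are descriptions of the same 2 libraries, and the genes of a cluster are not replicates of each other.

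**Figure D3:**
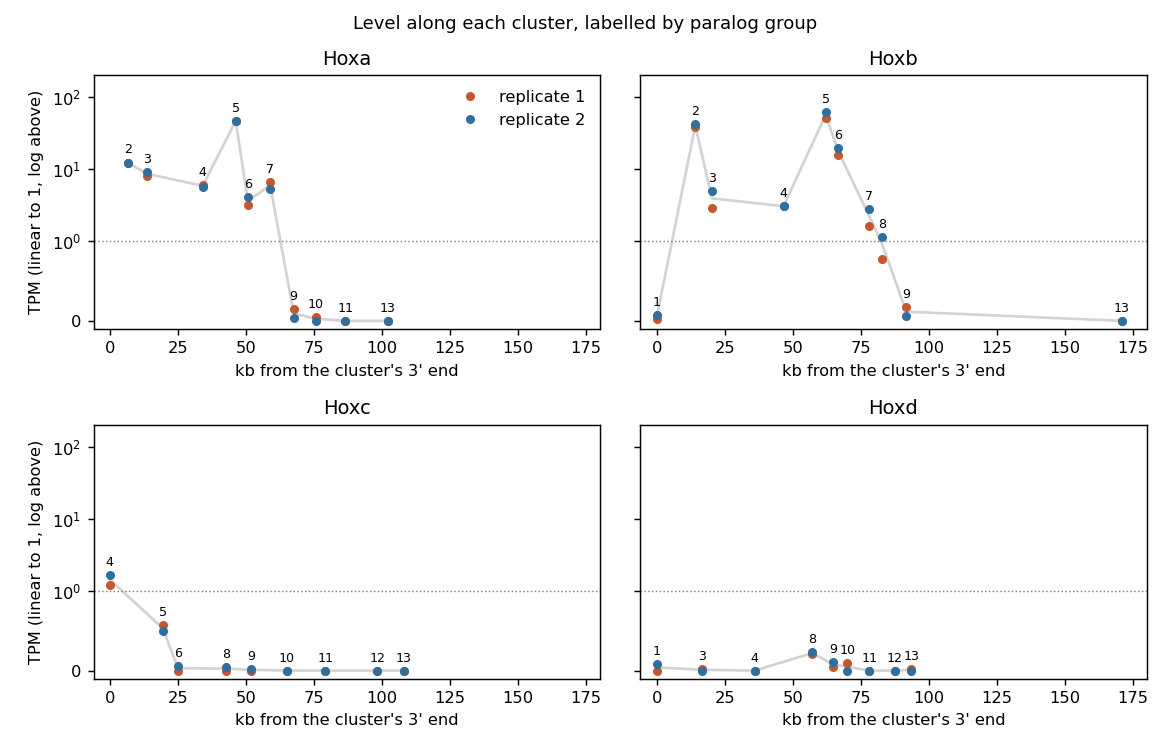
TPM of 38 Hox genes in replicate 1 and replicate 2 against the distance in kb of the gene's 3′ end to the 3′ end of its cluster, 1 panel per cluster, with paralog groups as numbers, a line through the means and a dotted line at 1 TPM; the vertical axis is linear up to 1 and logarithmic above. The a and b panels are high at groups 2 and 5 and drop to near 0 by group 9, the c panel starts at Hoxc4 and falls, and the d panel stays at or below 0.23 TPM at every gene.

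To ask how far the libraries differ, the counts of each gene were compared by an exact two-sided binomial test at TMM-scaled library sizes, with Benjamini-Hochberg adjustment over 14870 genes with a mean of at least 1 TPM. The test compares these 2 libraries and cannot speak of a condition. Of the 14 Hox genes tested 0 were called (adjusted p under 0.05 and at least 2-fold), beside 1.14% of all tested genes (169 genes). At an unadjusted p under 0.05 there were 4 of the 14 Hox genes, beside 4922 of the 14870 tested genes. An exact test in edgeR at the spread estimated over all genes (biological coefficient of variation 9.582%) gave 0 Hox genes at an adjusted p under 0.05. The lowest was 0.386 for Hoxb3, and 2 had an unadjusted p under 0.05, with no share over all genes taken. That spread was estimated from these same 2 libraries as 1 group, so it already holds the differences under test.

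Without the 2-fold minimum, 4 of the 14 had an adjusted p under 0.05 in the exact binomial test, beside 3347 of all 14870 tested genes. All 4 were lower in replicate 1 and lay in the b cluster, beside 11.0% of all tested genes lower in replicate 1. Higher in replicate 1 were 0 Hox genes, beside 11.5% of all tested genes. With spike-in scaling in place of TMM, which moves the median of all tested genes to -0.34, there were 10 of 14 lower in replicate 1 (4 of the a cluster, 5 of b and Hoxc4), beside 76.7% of all tested genes, so that these calls were no longer limited to the b cluster. Without the filter on low values Hoxb7 had an adjusted p of 0.0516 in the exact binomial test and 3 genes were left. All 3 were lower in replicate 1, beside 6.66% of all genes under that setting lower and 7.51% higher. Hoxb3 had 154.5 and 262.0 counts in replicates 1 and 2, a log2 ratio of -0.69 (95% counting interval -0.99 to -0.40; adjusted p = 3.17e-05). Hoxb5, with 2130 and 2525 counts, had -0.18 (-0.27 to -0.10; adjusted p = 0.000253). Hoxb6, with 444 and 562 counts, had -0.28 (-0.46 to -0.10; adjusted p = 0.0153). Hoxb7, with 43 and 75 counts, had -0.73 (-1.32 to -0.18; adjusted p = 0.0363). The deposited TPM intervals of the libraries were apart for 3 of the 14 (Hoxb3, Hoxb5 and Hoxb6), all lower in replicate 1, beside 12.6% of all tested genes. These intervals are not TMM-scaled. Over all tested genes they were apart and lower in replicate 1 for 1878 and higher for 438, so lower was the common direction. Hoxb3, Hoxb5, Hoxb6 and Hoxb7 all had an adjusted p above 0.05 in the edgeR exact test. Its spread came from these same 2 libraries, so it cannot decide whether the ratios exceed the spread between replicates.

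The other members of the b cluster were close to equal, Hoxb2 at -0.07 and Hoxb4 at 0.05 on the log2 scale. In the a cluster the log2 ratios ran from -0.33 (Hoxa6) to 0.27 (Hoxa7), with Hoxa5 at 0.02, and no adjusted p fell under 0.05 with TMM scaling. With spike-in scaling all 7 a genes were below 0, beside 13844 of the 14870 tested genes. Of the 7, 4 had an adjusted p under 0.05 in the exact binomial test, beside 76.7% of all tested genes lower in replicate 1. Hoxc4 stood at -0.42 (-0.98 to 0.12; adjusted p = 0.278 in the exact binomial test). Summed over a cluster, counts gave 3188 and 3276 for a (log2 ratio 0.02) and 4317 and 5101 for b (log2 ratio -0.18). The median log2 ratio was 0.10 over 7 a genes, -0.23 over 6 b genes and -0.10 over all 14, beside 0.00 over all tested genes, 95% of which lay between -0.59 and 0.70. Whether the a and b ratios differ from each other was not tested. The heart muscle markers moved with the libraries far more widely, with Myl7 at 269.87 TPM (replicate 1) and 17.29 TPM (replicate 2), and the collection day and the sex pattern also differ between the libraries. Their part in the b cluster ratios was not tested.

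**Figure D4:**
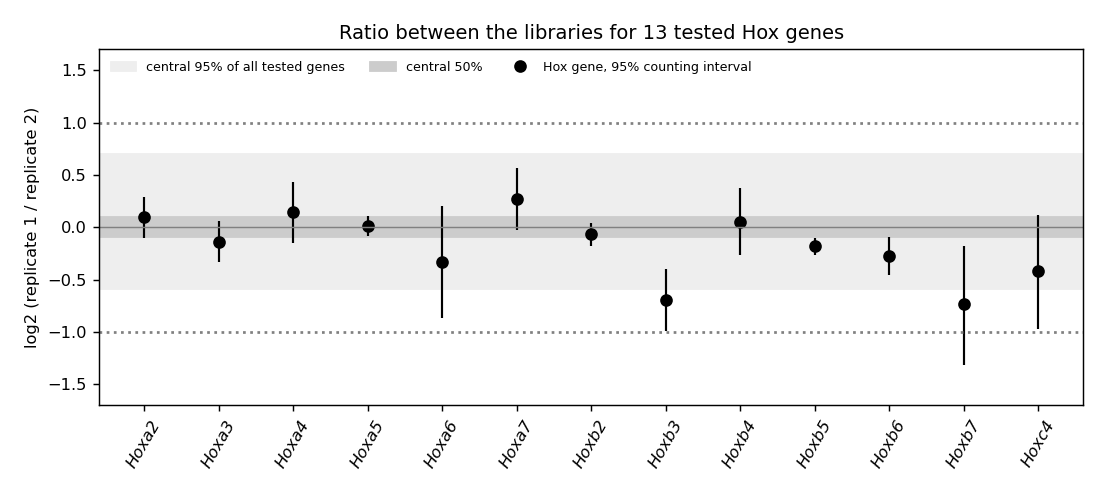
Log2 of replicate 1 over replicate 2 for 13 of the 14 tested Hox genes in cluster order, with 95% counting intervals, over bands that hold the central 50% (dark grey) and the central 95% (light grey) of all 14870 tested genes; dotted lines mark 2-fold. Hoxb3 at -0.69 and Hoxb7 at -0.73 lie below the light band, and the other 11 points lie inside it.

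Hoxb3 shares sequence with an antisense gene. Of the distinct runs of 100 bases in its transcripts, 49.7% are also in Hoxb3os on the opposite strand, as are 24.51% of those of Hoxb2. The labels and file headers do not say whether reads were counted by strand, so reads from a gene and its antisense partner may not have been told apart. Hoxb3os itself had 381.3 and 347.3 counts in replicates 1 and 2, a log2 ratio of 0.20 (-0.02 to 0.41; adjusted p = 0.189 in the exact binomial test). Summed with Hoxb3os, Hoxb3 gave 535.9 and 609.3 counts, a log2 ratio of -0.12 (-0.29 to 0.05), a sum added after the values were seen. The interval of the summed ratio holds 0, that of Hoxb3 alone does not. Hoxa3 (20.74%), Hoxa7 (16.99%), Hoxa4 (10.43%) and Hoxa2 (10.14%) share smaller parts with neighbouring genes, while Hoxa5, Hoxb6 and Hoxb7 share none and Hoxb5 shares 0.04%.

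The 14 detected genes have 30 transcripts in the tables, and 5 of them have 1 transcript only. For Hoxb5, Hoxb2 and Hoxb6 one protein-coding transcript took over 90% of the gene in both libraries (Hoxb5-201, Hoxb2-201 and Hoxb6-201), as did Hoxb7-201 and Hoxc4-201 for Hoxb7 and Hoxc4. The retained-intron transcripts Hoxb2-202 (5.5% and 5.96% in replicates 1 and 2) and Hoxb5-202 (5.48% and 4.6%) took most of the rest.

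Hoxa7 had the largest share of TPM in a transcript not annotated as protein-coding among the 14 detected genes. Its transcript Hoxa7-205, annotated as a target of nonsense-mediated decay and thus not as a source of the full protein, took 50.89% of the gene in replicate 1 and 56.31% in replicate 2. The protein-coding Hoxa7-203 took 27.63% and 22.43%, and Hoxa7-201 7.49% and 14.01%. For Hoxa3, the coding Hoxa3-201 took 67.71% and 74.98% and the retained-intron Hoxa3-203 22.83% and 16.44%. Hoxa3-203 (chr6:52199151-52213336) spans the positions of Hoxa5 and Hoxa6, which Hoxa3-201 also spans. For Hoxb3, Hoxb3-202 took 69.49% and 70.08%, Hoxb3-203 12.96% and 8.6%, and the processed transcript Hoxb3-204 8.97% and 15.64%, the last from 2 and 6 counts. These shares are estimates that divide reads among overlapping transcripts.

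**Figure D5:**
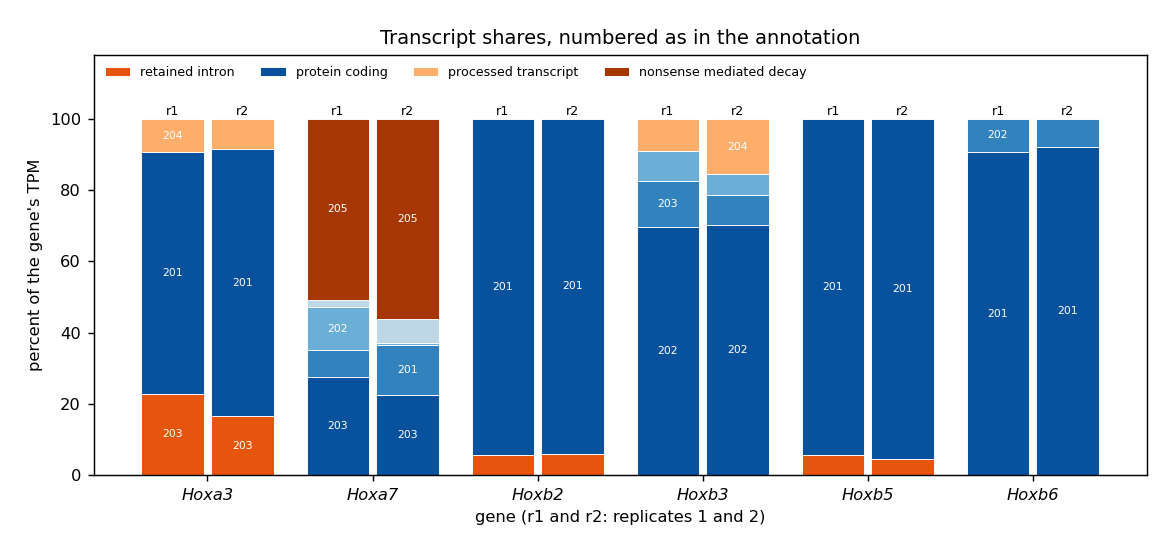
Percent of a gene's TPM assigned to each of its transcripts, replicate 1 (r1) to the left of replicate 2 (r2), for 6 detected genes with several transcripts, with blue for protein-coding, orange for retained-intron, light orange for processed and brown for nonsense-mediated decay transcripts. The brown Hoxa7-205 fills 50.89% and 56.31% of the Hoxa7 bars, and a single blue block fills most of the Hoxb2, Hoxb5 and Hoxb6 bars.

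Between the outermost Hox genes of the clusters lie 45 other annotated genes, of which 8 were detected in both libraries, 6 in the a cluster, 2 in the b cluster and 0 in the c and d clusters. Hotairm1, a noncoding RNA of the a cluster that is known from human blood cells, had 24.61 and 31.09 TPM in replicates 1 and 2. Hoxaas3 had 11.19 and 11.13 TPM, Hoxb5os 9.20 and 9.76 TPM, Gm15050 8.02 and 9.47 TPM, Hoxb3os 8.0 and 7.29 TPM, Hoxaas2 5.69 and 5.85 TPM, and 5730596B20Rik 1.78 and 2.10 TPM. Gm27477 had 8.15 and 21.32 TPM, but from 8 and 21 counts over 44 usable bases, so its TPM is coarse. Gm27868 (24.15 and 0 TPM, from at most 1.62 counts) and Gm11539 (1.2 and 0.80 TPM) had a mean of at least 1 TPM without reaching it in both libraries.

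Partners and regulators of Hox proteins were read from lists, each described by counts and a median level. TALE cofactors, homeodomain proteins that bind DNA together with Hox proteins, were all detected (9 of 9, median 25.5 TPM). Meis1 had 97.00 and 107.65 TPM, Pknox1 38.20 and 39.44, and Pbx3 29.26 and 30.86 TPM in replicates 1 and 2. Polycomb genes, which keep Hox clusters silent, were detected in 14 of 14 cases (median 21.28 TPM), led by Phc2 at 76.20 and 86.41 TPM and Rnf2 at 67.96 and 67.57 TPM, with Ezh2 at 60.24 and 65.94 TPM and Eed at 41.04 and 40.89 TPM next. Factors that keep Hox genes active were detected in 6 of 6 cases (median 35.49 TPM), led by Ash2l at 96.01 and 97.97 TPM, Wdr5 at 49.86 and 57.50 TPM, Men1 at 46.56 and 56.20 TPM, and Kdm6a at 16.32 and 22.89 TPM.

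Upstream regulators of the clusters were mixed, with 7 of 12 detected (median 1.877 TPM). Of its retinoic acid genes, Aldh1a2 and the receptors stood at the top. Cyp26b1 (1.43 and 1.13 TPM in replicates 1 and 2) and Cyp26a1 (0.19 and 0 TPM) were far lower. Aldh1a2, which makes retinoic acid, had 37.63 TPM (replicate 1) and 33.63 TPM (replicate 2), and the receptor Rara had 35.53 and 34.77, Rarg 29.99 and 30.54, and Rarb 16.18 and 14.49 TPM. Cdx2 and Cdx4, which drive posterior Hox genes in the early embryo, had 0 counts, and none of 8 ParaHox and cluster-flanking homeobox genes was detected. Genes reported downstream of group 5 in the mouse lung were detected in 5 of 5 cases (median 25.55 TPM), led by Wnt2 at 77.14 and 82.06 TPM, Bmp4 at 39.04 and 43.05 TPM, Lef1 at 24.37 and 26.74 TPM, and Axin2 at 10.18 and 12.58 TPM. The exact binomial test with the 2-fold minimum called 0 genes of these 6 lists between the libraries, beside the 1.14% over all tested genes. At any size, 9 of the 41 tested genes of these lists had an adjusted p under 0.05 and were lower in replicate 1, beside 11.0% of all tested genes, among them Kdm6a with a log2 ratio of -0.43 (adjusted p = 2.47e-21) and Axin2 with -0.36 (adjusted p = 9.2e-05). The same test gave 3 of 41 higher in replicate 1, beside 11.5% of all tested genes: Aldh1a2 with 0.22 (adjusted p = 0.00015), Rarb with 0.22 (adjusted p = 0.00637) and Rara with 0.12 (adjusted p = 0.0326). The libraries also differ in sex pattern and collection day, and the part of these in the list ratios, that of Kdm6a among them, was not tested.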

How the data were processed

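Total RNA-seq libraries from lung of mouse embryos (2 replicates, 1 group) were deposited as gene and transcript tables. Per the file headers, the authors gave for each feature an expected count (an estimated read number), TPM, a posterior mean of both, intervals whose level is not stated, and for transcripts the percent of the gene. Per the deposited read-me the build is mm10 with GENCODE M4. Aligner, counter and strand setting were each not given in the sources used here. Deposited FPKM was not used. Deposited TPM values include spike-ins in their total.

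Names, types and positions were taken by unversioned ID from GENCODE M21 (build GRCm38, which is mm10), matched for 42462 of 43346 mouse genes. Usable length was length minus 99 bases. The homeodomain class was found by translating transcripts (open frames of at least 60 residues with the letters W, F, any, N, R, R), since no protein table was used here, and holds a few genes not known as homeobox genes. Protein features were not analysed here. Expected counts were rounded and compared with TMM factors (edgeR 4.0.16, R 4.3.3, scipy 1.17.1). The log2 ratio is replicate 1 over replicate 2, after adding 0.5 to each count. DESeq2 1.42.0 size factors were an alternative. The test was checked on simulated data. One Hox gene and one cofactor enter the counts and sums but are not reported here. Every other Hox gene above 0 counts was named, transcripts with a mean share of at least 10%, other cluster genes with a mean of at least 1 TPM, and the 4 highest or any called gene of each list. For genes with 1 transcript the transcript itself was not named. Hoxb2-202, Hoxb5-202, Mylpf, Myod1, Myog, the flanking genes, and Cdx2, Cdx4, Mnx1 and Chat at 0 counts, outside these rules, were named after their values were seen. So were Slc18a3, Cyp26a1, Cyp26b1, Gm28230 and Hoxd3os1. The members and lists were chosen with earlier results of these data known. The libraries are labelled as separate biological replicates, p-values measure only the difference between them, and intervals cover counting error only.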

Additional observations from a re-analysis of the deposited data

How the results depend on the processing

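The count of 14 detected Hox genes ranged from 11 (at least 2 TPM) to 17 (at least 10 counts in both libraries), and was 15 without replicate 1 and 14 without replicate 2. The c cluster had 0 detected genes at 2 TPM and 2 at 10 counts, and the d cluster 1 at 10 counts (Hoxd8). Groups 9 to 13 had 0 under each of these settings. The group 5 share was 48.24% with posterior mean TPM and 51.79% with counts not corrected for length, and 49.07% to 49.08% leaving out either library. The b cluster share was 57.07% to 60.67% leaving out either library. Spike-in scaling shifted every log2 ratio by -0.342, giving a median of -0.445 over the Hox genes, beside -0.341 over all tested genes. It gave 2 called Hox genes, Hoxb3 (-1.035) and Hoxb7 (-1.075). The share called over all tested genes was not taken at this scaling, so the 2 have no background. Dropping the 2-fold minimum gave 4 genes, or 10 with spike-in scaling and 3 without the filter on low values. Spike-in scaling took log2 ratios from above 0 to below 0, those of Hoxa2, Hoxa4, Hoxa5, Hoxa7 and Hoxb4 among them. The a cluster median went from 0.096 to -0.246, beside 0.002 to -0.341 over all tested genes. The direction of these ratios thus depends on the scaling. Apart from changes of sign at spike-in scaling, no result reversed. Among the other results, 204 alternatives left the value within its spread or on its side of the threshold 26 moved it, and 2 passed the threshold where the main value did not, the spike-in values of Hoxb3 and Hoxb7. Hoxa7-205 fell to 48.29% of Hoxa7 with posterior mean TPM. No paired analysis was possible because there is 1 group. Leaving out a library leaves no ratio. Depth limits the 25 genes below 1 TPM, whose order rests on few counts.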

Other observations

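Genes that flank the clusters were read for comparison with the silent Hox genes. Those named here were picked after their values were seen, and not every flanking gene read is named. On the 5′ side of the d cluster, the homeobox gene Evx2, 8.8 kb from Hoxd13, was at 0 counts in both libraries, while Lnpk, 88.9 kb away, had 23.46 TPM (replicate 1) and 22.86 TPM (replicate 2). On its 3′ side Mtx2, 60.7 kb from Hoxd1, had 93.76 and 94.71 TPM. So a cluster with no detected Hox gene lay between genes that were well detected.

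Around the a cluster, Skap2 on the 3′ side had 50.35 and 50.79 TPM in replicates 1 and 2, and on the 5′ side the homeobox gene Evx1 had 0.04 and 0.05 TPM and Hibadh, beyond it, 43.21 and 42.19 TPM. Beside the b cluster, which held the highest Hox levels, the nearest protein-coding neighbours were low: Skap1 had 0.75 and 0.88 TPM and Ttll6 0.01 and 0.07 TPM. Farther out on the side of Skap1, Snx11 had 8.09 and 12.68 TPM, and on the side of Ttll6, Calcoco2 had 0 and 0.03 TPM. Around the c cluster, Calcoco1 had 27.42 and 29.11 TPM and Smug1 11.72 and 12.66 TPM.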
